A study of Mus musculus with 31 samples.

Results

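The response of the C57 nucleus accumbens (NAc) to repeated cross-fostering (RCF) was measured on 8 of the 31 arrays of the series, 4 from RCF mice and 4 from control mice, chosen by the titles of the columns in the deposited matrix of values. The series covers 2 inbred strains, C57BL/6J (C57) and DBA2/J (DBA), and 2 brain regions, the NAc and the medial prefrontal cortex (mPFC), each after RCF or control rearing. All mice were females, labelled as 12 weeks old, and carried no transgene. Whole RCF litters were handed to another dam once a day from postnatal day 1 to day 4 and stayed with the last one until weaning on day 28. Control litters were lifted daily over the same days and put back with their own mother. The protocol limits the animals taken from 1 cage or litter, but no label ties an array to a litter, so p-values measure the spread between the samples only.

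The NAc is the ventral part of the striatum, where dopamine released from midbrain axons acts on inhibitory projection neurons and takes part in motivation and reward. Most of its neurons are these projection neurons, known for the dopamine receptors Drd1 and Drd2, the peptide precursors Penk, Pdyn and Tac1, and the signalling protein Ppp1r1b. Repeated change of mother in the first days of life is used in mice as a model of an unstable early environment. The title of the series places it in work on Xlr4 and vulnerability to cocaine.

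Before any comparison, some arrays stood apart. The arrays of controls 1 and 3, and those of controls 2 and 4, differed from each other by no more than repeated spots on 1 array did (ratios of 0.766 and 0.877, against 1.47 to 4.23 in the 41 pairs of 1 group not averaged). Each pair was averaged and counted as 1 sample, which left 4 RCF and 2 control samples. All 8 arrays shared 1 slide, with the RCF arrays in columns 3 and 4 and the control arrays in columns 1 and 2, so slide column and rearing cannot be told apart. Each combination of strain and region had its own slide and scan day. Levels in the C57 NAc and in other strains or regions therefore also differ by slide and scan day. Between 62.0% and 69.7% of probes were well above background on the RCF arrays, and between 58.6% and 68.3% on the control arrays, so the ranges of the arrays overlapped. After averaging, control 1 and 3 was at 61.5% and control 2 and 4 at 63.7%, against 67.4%, 65.3%, 62.0% and 69.7% in RCF samples 1 to 4.

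Markers of the region placed 4 of the 6 samples with the NAc. The mean of 27 striatal projection neuron markers was 11.05, 13.33, 13.61 and 13.73 in RCF samples 1 to 4, against 10.79 in control 1 and 3 and 13.14 in control 2 and 4, on the log2 scale. The mean of 17 cortical excitatory neuron markers ran the other way, at 10.69, 8.97, 9.06 and 9.00 in RCF samples 1 to 4, against 10.81 in control 1 and 3 and 8.82 in control 2 and 4. RCF 1 and control 1 and 3 thus lay apart from the other 4 samples on both lists. Tbr1, a transcription factor of cortical projection neurons, was at 14.08 in RCF 1 and at 9.99, 9.62 and 9.34 in the other RCF samples, against 14.21 in control 1 and 3 and 10.06 in control 2 and 4. Adora2a, the adenosine receptor of one class of striatal projection neurons, was at 9.01 in RCF 1 and at 13.30, 13.43 and 13.49 in the other RCF samples, against 9.08 in control 1 and 3 and 13.33 in control 2 and 4. In bulk tissue, fewer cells of a type and less RNA per cell cannot be told apart. The number of called features and the main differences are therefore given with all 6 samples and also without RCF 1 and control 1 and 3, which leaves 3 RCF samples and 1 control sample.

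**Figure D1:**
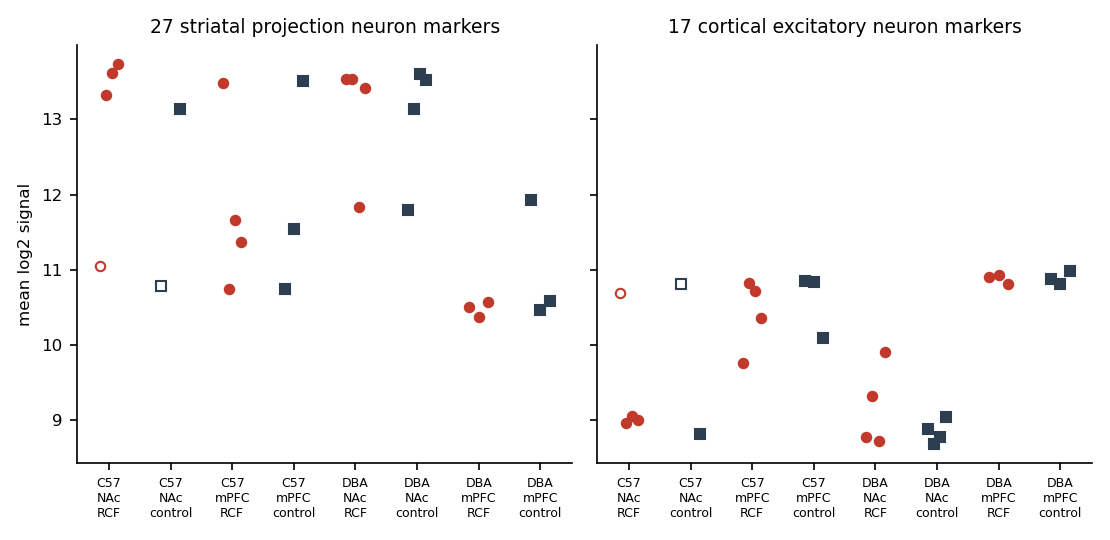
Mean log2 signal of 27 striatal projection neuron markers (left) and 17 cortical excitatory neuron markers (right) in each of the 27 samples, by group. Circles are RCF samples and squares are control samples, and the open symbols are C57 NAc RCF 1 and C57 NAc control 1 and 3. The open symbols lie near 11 in both panels, below the other C57 NAc samples for striatal markers and above them for cortical markers.

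With all 6 samples, 211 of 25536 features passed an adjusted p of 0.05 in C57 NAc RCF against control samples (limma, Benjamini-Hochberg adjustment over all features), or 0.826% of those tested. A feature is a gene, represented by the probe with the highest mean over all 31 arrays, or a probe without a gene name. Of the 211, 22 were higher in RCF samples (0.0862%) and 189 were lower (0.74%). Quantile normalization moved this split to 75 higher and 258 lower, and normexp with quantile normalization of the scanner intensities to 76 higher and 284 lower. The calls included 129 named genes, 14 higher and 115 lower in RCF samples. Over all called features the median difference was -1.34 for the 189 lower ones and 0.89 for the 22 higher ones, on the log2 scale. The model took its spread from all 8 groups. Fitted on the 6 C57 NAc samples alone, limma called 0 features, with 2294 at an unadjusted p under 0.05, against 3123 (12.2%) in the fit of all groups.

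Nfia, Acap1 and Nalcn had the lowest p among the named falls. Nfia, a nuclear factor I protein known for its part in glial development, had log2 signals of 7.98, 8.43, 7.91 and 7.85 in RCF samples 1 to 4, against 9.85 in control 1 and 3 and 9.14 in control 2 and 4. All 4 RCF samples lay below both control samples, and the mean difference was -1.46 ± 0.22 (SE; limma, adjusted p = 0.0078). Bcl7b and Arid1b encode subunits of the BAF chromatin remodelling complex. Bcl7b was at 9.95, 10.43, 10.66 and 10.53 in RCF samples, against 11.71 and 11.25 in control samples, a difference of -1.09 ± 0.18 (limma, adjusted p = 0.0102). Arid1b was at 11.06, 11.51, 11.17 and 11.15 in RCF samples, against 12.50 and 11.81 in control samples, a difference of -0.93 ± 0.16 (limma, adjusted p = 0.0165). In both genes the RCF and control samples did not overlap, which held for 18.8% of all features. Pds5a, which regulates the cohesin ring around DNA, averaged 8.09 ± 0.15 in RCF samples (SD, n = 4) and 9.03 ± 0.41 in control samples (SD, n = 2), a difference of -0.94 ± 0.16. Sp6, a zinc finger factor of the Sp family known from tooth and skin, averaged 6.79 ± 0.24 in RCF samples (SD, n = 4) and 8.12 ± 0.42 in control samples (SD, n = 2). Sfswap, a regulator of splicing, fell by 1.04 ± 0.19 (limma, adjusted p = 0.0165). Arid1b has a second, dimmer probe, which differed by 0.10 ± 0.28 and did not pass.

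Nalcn, the sodium leak channel that helps set the resting potential of neurons, was at 10.08, 10.76, 10.30 and 10.06 in RCF samples, against 11.72 and 11.26 in control samples. It fell by 1.19 ± 0.18 (SE; limma, adjusted p = 0.0078), with every RCF sample below both control samples. Acap1, an activating protein for the GTPase Arf6 in endosome recycling, was at 4.64, 4.52, 5.16 and 4.28 in RCF samples, against 6.65 and 6.28 in control samples. Its difference of -1.81 ± 0.28 was the largest of the 15 named falls with the lowest p (limma, adjusted p = 0.0078), at a low signal. Slc35d1 carries nucleotide sugars used to build chondroitin sulfate. It averaged 8.29 ± 0.22 in RCF samples (SD, n = 4) and 9.53 ± 0.42 in control samples (SD, n = 2), a difference of -1.24 ± 0.20. Oas1d, a member of the oligoadenylate synthetase family, fell by 1.68 ± 0.31 (limma, adjusted p = 0.0165), and its control samples differed widely, at 8.71 and 7.30, against 6.07 to 6.46 in RCF samples. Named after their values were seen, the synaptic adhesion protein Nlgn3 (-0.76 ± 0.17) and the matrix glycoprotein Tnr (-0.97 ± 0.23) also passed, at smaller sizes.

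**Figure D2:**
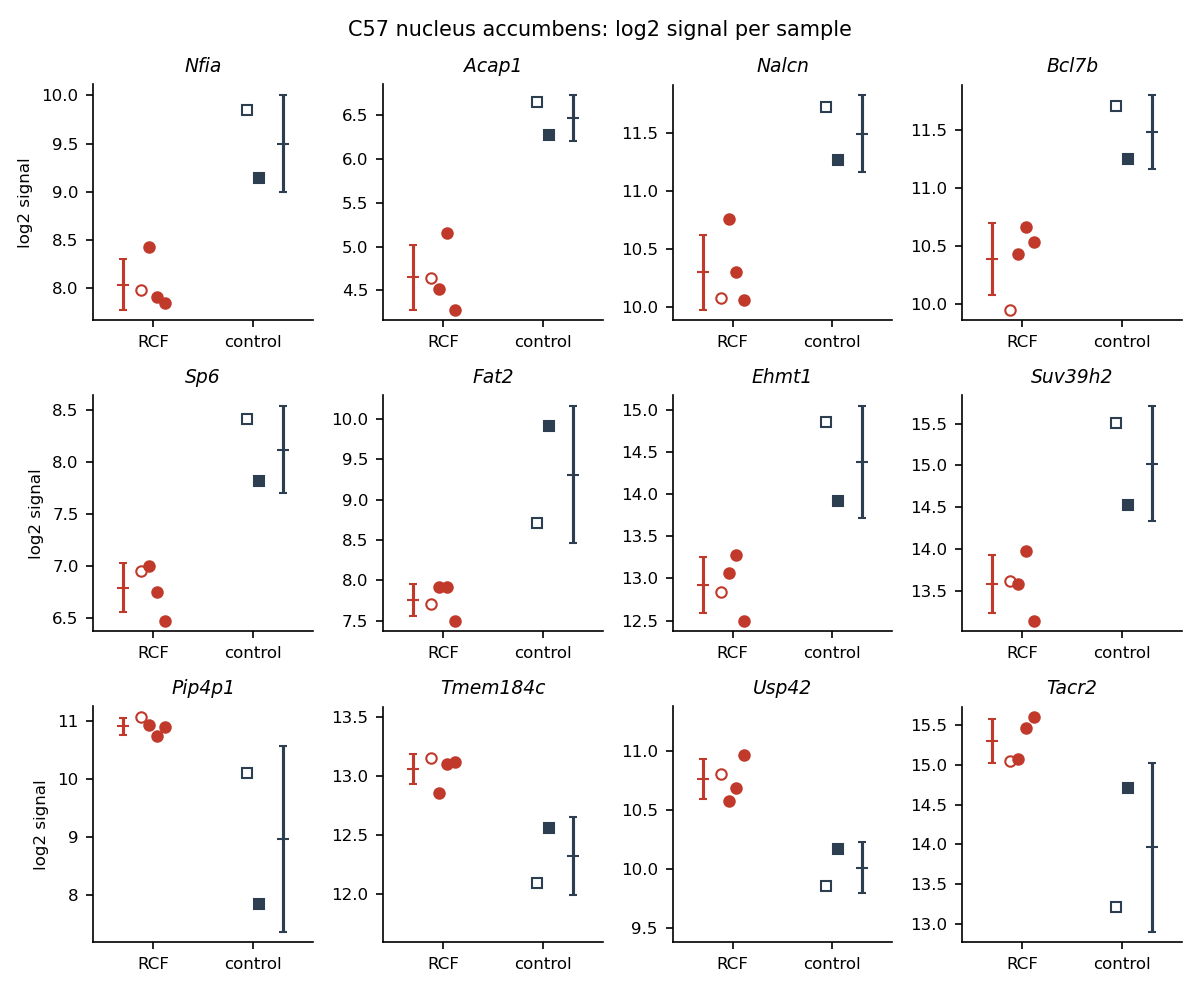
Log2 signal of 12 called genes in the 4 RCF (circles) and 2 control (squares) samples of the C57 NAc, with the group mean and SD beside the points; each panel has its own axis and spans at least 2 log2 units. Open symbols are RCF 1 and control 1 and 3. RCF and control samples do not overlap in any panel, and control 1 and 3 is the farther of the control samples from RCF in 10 of the 12 genes, all but Fat2 and Pip4p1.

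The 14 named genes that were higher in RCF samples differed by 0.49 (Tbc1d23) to 1.94 (Pip4p1). Tmem184c, a transmembrane protein, was at 13.15, 12.86, 13.10 and 13.12 in RCF samples, against 12.09 and 12.56 in control samples, a rise of 0.73 ± 0.13 (limma, adjusted p = 0.0165). A second Tmem184c probe gave nearly the same rise, 0.71 ± 0.13 (limma, adjusted p = 0.0169), and correlated with the first at 0.97 over the 27 samples. Usp42, a deubiquitinating enzyme, averaged 10.76 ± 0.17 in RCF samples (SD, n = 4) and 10.01 ± 0.22 in control samples (SD, n = 2). Rises between 0.49 and 0.79 were also called for Snapc5, a subunit of the complex that starts small nuclear RNA genes, the dynein light chain Dynlt3, the mTORC1 regulator Mios, the mitochondrial assembly factor Tmem126a, the esterase Iah1, the nucleic acid binding protein Cnbp and the Golgi protein Tbc1d23. Kcnj13, a potassium channel known from the choroid plexus, was at 8.52, 7.35, 8.25 and 8.85 in RCF samples, against 6.39 and 7.05 in control samples, a rise of 1.52 ± 0.35 (limma, adjusted p = 0.0359). The mean of the 9 choroid plexus and ependymal markers was 7.91 to 8.05 in RCF samples, against 7.31 and 7.90 in control samples, and no other member of that list passed.

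Tacr2, a receptor for the tachykinin neurokinin A, was at 15.05, 15.07, 15.46 and 15.60 in RCF samples, against 13.21 in control 1 and 3 and 14.71 in control 2 and 4. The acyltransferase Oacyl and the ubiquitin ligase Pdzrn3 had the same shape, with control 1 and 3 more than 1 log2 unit below every RCF sample and control 2 and 4 below them by less. Their fitted rises were 1.34 ± 0.29, 1.39 ± 0.32 and 1.34 ± 0.32. Without RCF 1 and control 1 and 3 the same differences were 0.67 ± 0.29, 0.60 ± 0.32 and 0.61 ± 0.33, and none passed.

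Among the 211 called features, 100 shared 1 profile over all 27 samples. This set was defined after the values were seen, as the features that correlated above 0.95 with the called feature most like all other called features, so it is described here without a test. It held 109 features in all, and 143 at a limit of 0.9, of which 117 were called. The 19 features just inside the limit (correlation 0.95 to 0.96) had a median difference of -1.36, and the 9 just outside it (0.94 to 0.95) one of -1.43. All 100 were lower in RCF samples, between -2.04 and -1.17 with a median of -1.40, and they made up 52.9% of the features called lower. Their signal was high, with a median of 13.11 against 9.28 for all features.

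The shared profile contained 64 named genes with unlike functions. Ehmt1 and Suv39h2, methyltransferases for lysine residue K9 of histone H3, both belonged to it. Ehmt1 was at 12.84, 13.06, 13.28 and 12.50 in RCF samples, against 14.85 and 13.92 in control samples, a difference of -1.46 ± 0.29 (limma, adjusted p = 0.0238). Suv39h2 was at 13.62, 13.58, 13.98 and 13.14 in RCF samples, against 15.51 and 14.53 in control samples, a difference of -1.44 ± 0.29 (limma, adjusted p = 0.0238). In both genes RCF 4 was the lowest sample and control 1 and 3 the highest. Also in the set, and in part named after their values were seen, were the splicing factor Srek1, the RNA granule protein Lsm14a, the pausing factor subunit Nelfcd, the growth cone protein Dpysl5, the endocytic scaffold Itsn1, the sodium channel Scn8a, the kinase Pak4, the transcription factors Usf2 and Mef2a, and Hs2st1, an enzyme of heparan sulfate synthesis, with differences between -1.54 and -1.21.

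The promoters of Ehmt1 and Suv39h2 are shown as those of the histone H3 methyltransferases in the shared profile (RefSeq, build GRCm38.p6, 250 bases before to 50 after the start, minus strand, chr2:24919560-24919859 and chr2:3474937-3475236). Moving together is how the profile was defined, so it is not particular to these 2 genes. A second Ehmt1 probe differed by only -0.04 ± 0.15. Joint control of the 2 genes was not tested. Capitals mark the GC box GGGCGG, the cAMP response element TGACGTCA and the E-box CACGTG, each searched on both strands.
Ehmt1: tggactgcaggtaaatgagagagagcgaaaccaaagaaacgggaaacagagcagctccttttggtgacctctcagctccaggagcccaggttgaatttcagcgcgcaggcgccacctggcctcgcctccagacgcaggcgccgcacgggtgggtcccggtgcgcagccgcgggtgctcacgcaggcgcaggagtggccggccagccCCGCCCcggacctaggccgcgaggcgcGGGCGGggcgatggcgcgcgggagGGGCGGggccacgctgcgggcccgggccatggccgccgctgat
Suv39h2: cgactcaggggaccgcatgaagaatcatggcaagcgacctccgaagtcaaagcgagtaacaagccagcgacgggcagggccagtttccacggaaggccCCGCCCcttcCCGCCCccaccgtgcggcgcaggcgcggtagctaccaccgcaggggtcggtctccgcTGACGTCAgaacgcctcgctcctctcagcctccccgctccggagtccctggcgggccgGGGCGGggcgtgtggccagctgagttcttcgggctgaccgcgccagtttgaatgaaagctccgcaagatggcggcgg
Each window held 3 GC boxes, a motif present in 35.7% of the 32851 promoters in the table. The Suv39h2 window also held 1 cAMP response element, found in 1.79% of promoters, and neither held the E-box, found in 7.15%.

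The mean level of the shared profile was 12.67, 12.72, 13.12 and 12.28 in RCF samples 1 to 4, against 14.56 in control 1 and 3 and 13.67 in control 2 and 4. In the 6 other groups, all on other slides, it ranged from 11.94 to 13.47, which takes in every C57 NAc RCF sample and neither C57 NAc control sample. Of the 6 C57 NAc samples, control 1 and 3 had the highest level and the fewest probes well above background (61.5%). RCF 4 had the lowest level and the most such probes (69.7%). The averaged arrays differed in this share but little in level. Controls 1 and 3 had 64.5% and 58.6% of probes well above background, at levels of 14.56 and 14.55. Controls 2 and 4 had 68.3% and 59.2%, at levels of 13.63 and 13.71. In other groups the deepest samples, DBA mPFC control 1 (81.9%) and C57 mPFC RCF 4 (80.2%), were at 12.07 and 12.06. DBA NAc RCF 4, the lowest of all at 11.94, had 68.9%. The part of array depth in the profile was not tested. Across the 211 called features, both control samples lay outside the range of the other 25 samples in 171 (81.0%), against 2.51% of all features. The 211 were chosen by this same contrast, so the share describes them and is no test. All 4 RCF samples lay outside the range of the other 23 samples in 0 of the 211, against 0.094% of all features. In Nalcn, for example, the samples of the DBA NAc and C57 mPFC groups lay between 9.91 and 10.90, as did all 4 C57 NAc RCF samples, while the control samples were at 11.72 and 11.26.

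**Figure D3:**
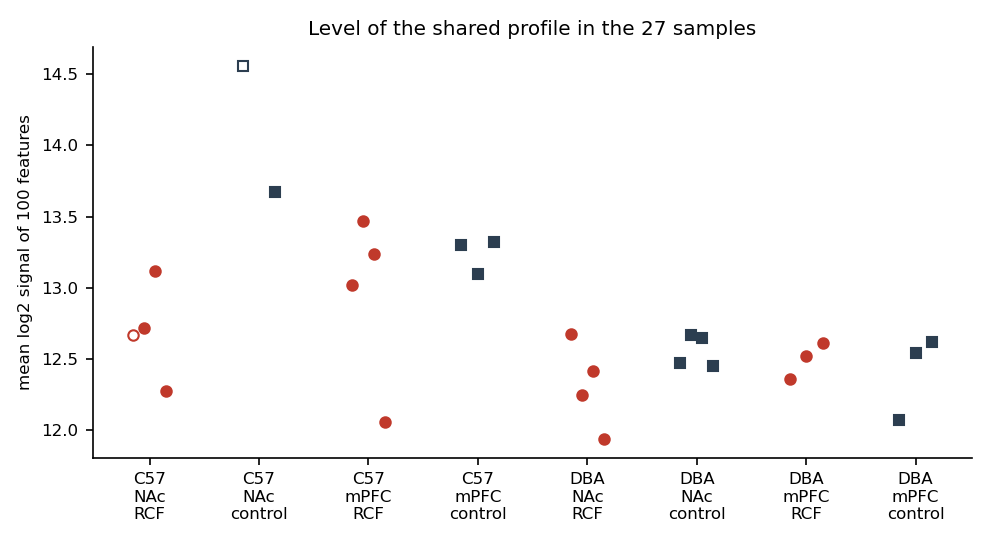
Mean log2 signal of the 100 called features of the shared profile in each of the 27 samples, by group; circles are RCF and squares control samples, and open symbols are C57 NAc RCF 1 and C57 NAc control 1 and 3. The C57 NAc control samples, at 14.56 and 13.67, lie above all 25 other samples, which range from 11.94 to 13.47.

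Other probes of the called genes rarely showed the same difference. Of the 139 called features with a gene symbol, 37 had at least 1 further probe among the deposited values, 50 probes in all, and 3 of the 50 passed in a fit of all probes. The probes used for these 37 genes had a median difference of -1.36, and the other probes one of -0.03. The probes used were picked because they were called, which fixes part of this gap in advance. In the shared profile, 25 genes had 35 other probes, with a median of -0.05, and 2 of them passed, those of Itsn1 (-1.14 ± 0.22) and Atxn7 (-1.06 ± 0.20). The other 4 probes of Itsn1 differed by -0.33 to 0.39. The second Ehmt1 probe, with a mean signal of 11.18, differed by -0.04 ± 0.15, where the probe used, at 12.94, differed by -1.46. Suv39h2 had no other probe among these values. Of the 50 other probes, 49 were dimmer over the 27 samples than the one used, and the exception was a probe of Mef2a at nearly the same signal, with a difference of 0.36 ± 0.31. The part of probe brightness in these differences was not tested.

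**Figure D4:**
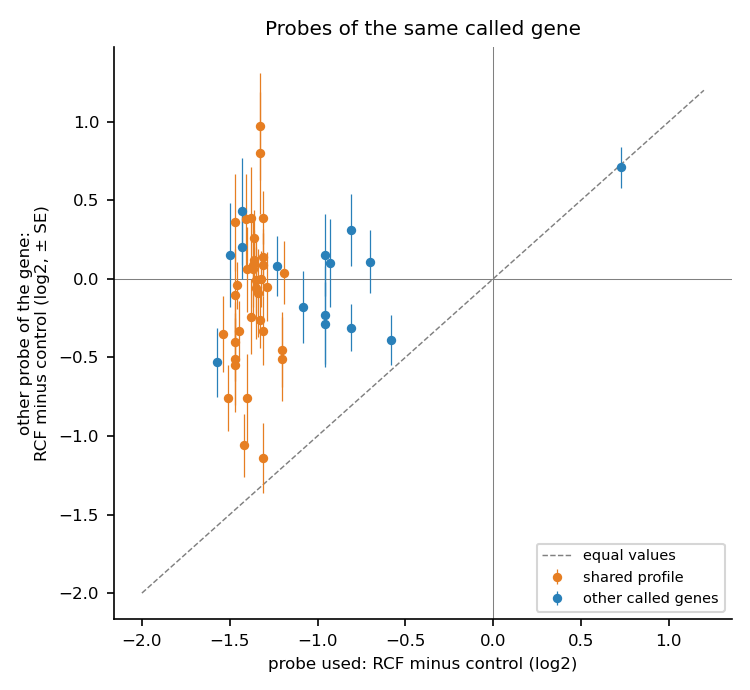
Difference between RCF and control samples of the C57 NAc (log2) for the probe used for a called gene, the brightest over all 31 arrays (horizontal) and for each of its other probes (vertical, with SE), for 50 other probes of 37 genes. Most points lie closer to 0 on the vertical than on the horizontal axis; the point at the upper right on the line of equal values is Tmem184c, at 0.73 and 0.71.

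Without RCF 1 and control 1 and 3, 6 features passed (0.0235% of those tested; limma, Benjamini-Hochberg), 2 higher and 4 lower in RCF samples, with 544 (2.13%) at an unadjusted p under 0.05. The control group is then 1 sample, assumed to vary as the other groups do. The median size of the difference of the 211 features called with 6 samples was then 0.91, against 1.33 with 6 samples. Since the groups did not overlap in any of the 211, no sign could turn. Control 1 and 3 was farther from the RCF samples than control 2 and 4 in 208 of the 211. Named genes such as Nfia (-1.08 ± 0.28), Acap1 (-1.63 ± 0.38) and Nalcn (-0.89 ± 0.23) kept most of their fitted difference but did not pass (limma, adjusted p of 0.857 for Acap1 and 1 for the other two).

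Fat2 and Pip4p1 were the 2 features that passed with and without the samples in doubt. Fat2, a giant cadherin known from cerebellar granule cells, was at 7.71, 7.92, 7.92 and 7.50 in RCF samples, against 8.71 in control 1 and 3 and 9.91 in control 2 and 4. It fell by 1.55 ± 0.30 with 6 samples (limma, adjusted p = 0.0197) and by 2.13 ± 0.35 with 4 (limma, adjusted p = 0.0196). Pip4p1, a phosphatase of phosphatidylinositol bisphosphate in late endosomes and lysosomes, was at 11.06, 10.92, 10.73 and 10.89 in RCF samples, against 10.10 in control 1 and 3 and 7.83 in control 2 and 4. It rose by 1.94 ± 0.38 with 6 samples (limma, adjusted p = 0.0238) and by 3.02 ± 0.34 with 4 (limma, adjusted p = 0.000123). Without control 2 and 4 the differences were -0.95 for Fat2 and 0.81 for Pip4p1, and neither passed (limma, adjusted p = 0.0878 and adjusted p = 0.134). Both calls also missed the threshold without RCF 1 (limma, adjusted p = 0.0598 for Fat2 and 0.0601 for Pip4p1) and without RCF 4 (limma, adjusted p = 0.072 and 0.0715). With normexp on the scanner files Fat2 fell short of the threshold at -0.72 (limma, adjusted p = 0.0725), and with each array as its own sample Pip4p1 did (limma, adjusted p = 0.0769). In the DBA NAc and C57 mPFC groups Pip4p1 lay between 10.05 and 11.37, so that control 2 and 4 stood more than 2 log2 units below all of them.

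The promoters of the 2 genes are shown because their calls held in both sets of samples (RefSeq, build GRCm38.p6, minus strand, chr14:50930800-50931099 for Pip4p1 and chr11:55312208-55312507 for Fat2), with the same 3 motifs in capitals.
Pip4p1: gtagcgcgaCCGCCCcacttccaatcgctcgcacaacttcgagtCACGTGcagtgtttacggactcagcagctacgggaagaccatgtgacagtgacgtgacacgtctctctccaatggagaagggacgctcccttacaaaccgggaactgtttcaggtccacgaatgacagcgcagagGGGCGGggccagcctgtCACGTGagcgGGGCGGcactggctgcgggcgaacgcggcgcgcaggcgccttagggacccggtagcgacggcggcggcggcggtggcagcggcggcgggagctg
Fat2: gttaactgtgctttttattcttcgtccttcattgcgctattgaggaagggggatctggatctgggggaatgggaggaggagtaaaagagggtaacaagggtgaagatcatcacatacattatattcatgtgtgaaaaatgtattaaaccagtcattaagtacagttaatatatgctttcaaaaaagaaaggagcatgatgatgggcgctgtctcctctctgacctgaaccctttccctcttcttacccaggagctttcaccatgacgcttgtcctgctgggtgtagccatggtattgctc
Pip4p1 held 3 GC boxes and 2 E-boxes, and the Fat2 window held none of the 3 motifs. The bases just before the annotated Fat2 start read like the end of an intron, so this window may not be its promoter. Its lack of motifs is therefore not read as a trait of Fat2.

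Every feature called without the samples in doubt, Fat2 and Pip4p1 included, was set against control 2 and 4 alone. The others are given here. Slc8a2, a sodium and calcium exchanger of neurons, was at 13.62, 13.91 and 14.20 in RCF samples 2 to 4, against 10.05 in control 2 and 4, and at 14.83 in RCF 1 and 15.07 in control 1 and 3. The kinase Stk32a was at 8.36, 8.77 and 8.67 in RCF samples 2 to 4, against 12.59 in control 2 and 4, and at 6.98 in RCF 1 and 7.42 in control 1 and 3. Mbd6, a protein with a methyl-CpG binding domain, was at 12.01, 11.62 and 12.09 in RCF samples 2 to 4, against 13.98 in control 2 and 4, and at 11.42 in RCF 1 and 11.32 in control 1 and 3. A probe without a gene name was also called. In each named gene control 2 and 4 lay alone, and with all 6 samples none of the 3 passed (limma, adjusted p = 0.369 for Slc8a2, adjusted p = 0.343 for Stk32a and adjusted p = 0.416 for Mbd6).

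**Figure D5:**
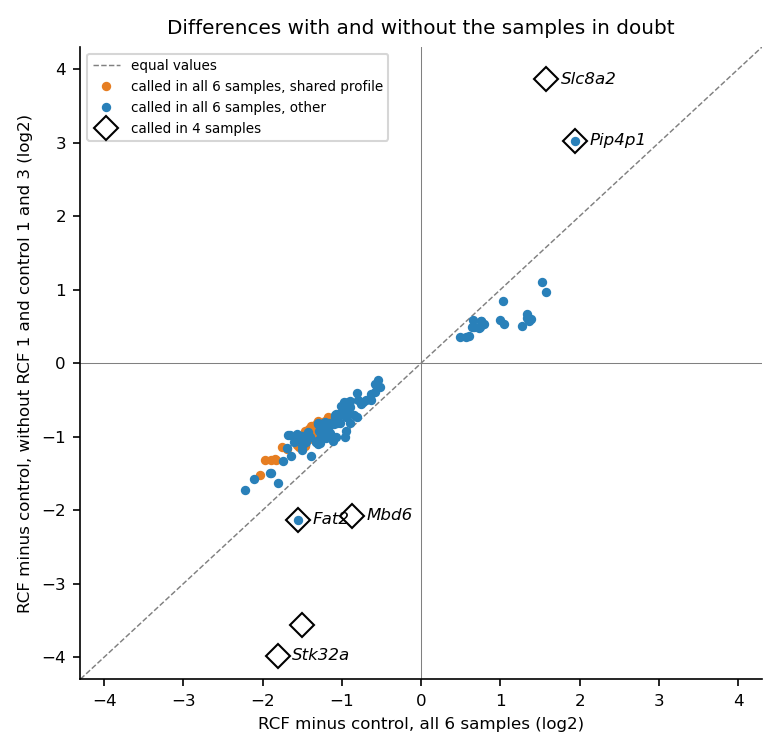
Difference between RCF and control samples (log2) for the 211 called features and the 6 features called without RCF 1 and control 1 and 3, with all 6 samples (horizontal) and without those 2 samples (vertical). Filled points are features called with 6 samples, coloured by the shared profile, and diamonds are features called with 4. Most filled points lie closer to 0 on the vertical axis, while Pip4p1 (1.94 and 3.02) and Fat2 (-1.55 and -2.13) lie farther from it.

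The 30 lists of genes chosen for the region and the treatment held 547 tested genes, of which 7 passed, 1 higher and 6 lower (1.28%, against 0.826% of all features), and 24 lists held no called gene. The listed genes all have a symbol, and among all 14434 features with a symbol 139 passed. The median difference of all features was 0.01 with 6 samples and -0.02 with 4. Among enzymes that write or erase methylation of H3K9, 2 of 17 were lower in RCF samples, Ehmt1 and Suv39h2, and the list median was -0.05. The second Ehmt1 probe differed by -0.04 ± 0.15, and Suv39h2 had no other probe among these values. Setdb1 and Ehmt2, the next by p, differed by 0.48 ± 0.18 and -0.31 ± 0.14 and did not pass. Of 18 histone deacetylases, Hdac7 alone passed, at 10.76, 10.82, 10.39 and 10.47 in RCF samples, against 11.92 and 11.13 in control samples (-0.91 ± 0.21; limma, adjusted p = 0.0341). Dnmt1, Tet2 and the other 17 genes of DNA methylation had 0 calls and a median of -0.03 (limma; 4 of 19 at an unadjusted p under 0.05), and Tet2 differed by -0.53 ± 0.21.

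Transmitter systems of the NAc differed with the samples in doubt. The 27 striatal projection neuron markers had a median difference of 0.93, with 26 above 0, and one of 0.45 without RCF 1 and control 1 and 3, with 24 above 0. Neither fit called any of them. Drd1 was at 8.63, 11.85, 12.27 and 12.30 in RCF samples, against 8.15 in control 1 and 3 and 11.55 in control 2 and 4. Its difference was 1.41 ± 1.15 with 6 samples and 0.59 ± 1.27 with 4. For the 9 dopamine genes the median was 0.35 with 6 samples and 0.04 with 4, and for the 9 opioid genes 0.07 and 0.17. Oprm1, the mu opioid receptor, was the closest of the opioid genes to the threshold, at 15.68, 15.58, 16.00 and 16.06 in RCF samples, against 14.04 and 15.47 in control samples (1.08 ± 0.31; limma, adjusted p = 0.113).

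Receptors and stress genes gave 0 calls in limma. The 15 ionotropic glutamate receptor subunits had a median of -0.12 with 3 at an unadjusted p under 0.05, the 14 GABA-A receptor subunits one of 0.09 with 0, the 7 serotonin receptors one of 0.36 with 0, and the 15 genes of glucocorticoid and CRF signalling one of -0.13 with 1. Nr3c1, the glucocorticoid receptor, differed by 0.21 ± 0.14, and Tsc22d3, a gene that glucocorticoids induce, by -0.48 ± 0.22. The 20 immediate early genes had a median of -0.02 with 6 samples and 0.34 with 4. Of the lists of other cell types, the 22 oligodendrocyte markers had a median of 0.28 with 6 samples and -0.16 with 4, the 19 astrocyte markers 0.05 and -0.06, the 20 microglia markers 0.03 and -0.02 and the 25 vascular and meningeal markers 0.12 and 0.09, with 0 calls each in limma (2, 0, 3 and 3 at an unadjusted p under 0.05). The part of these markers in the called genes was not tested.

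Among the other lists, 3 held 1 called gene each. Hs2st1, which adds sulfate to heparan sulfate chains on the cell surface, was at 9.49, 9.52, 9.82 and 8.94 in RCF samples, against 11.48 and 10.48 in control samples, and the median of its list of 29 enzymes was 0.02. Oas1d was the called member of 19 interferon-induced genes (median 0.01), and Acap1 that of 35 regulators of Arf and Arl GTPases (median -0.09). Isg20, the next interferon-induced gene by p, differed by 0.75 ± 0.23 in the other direction and did not pass (limma, adjusted p = 0.144).

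The remaining lists had 0 calls in limma. Median differences were -0.45 for 17 cortical markers, 0.60 for 12 ventral forebrain and septal markers and -0.48 for 15 interneuron markers with 6 samples, and 0.28, -0.18 and -0.02 with 4, with 2, 1 and 1 genes at an unadjusted p under 0.05 with 6 samples. Lhx6, a transcription factor of interneurons from the medial ganglionic eminence, differed by 1.27 ± 0.33 (limma, adjusted p = 0.0693). The medians were -0.17 for 7 metabotropic glutamate receptors, 0.08 for 6 neurotrophin genes, -0.15 for 4 genes of oxytocin and vasopressin and 0.42 for 6 blood markers, with 1, 1, 0 and 0 genes at an unadjusted p under 0.05. Lists of basic cell functions lay near 0, at -0.06 for 21 heat shock genes, -0.09 for 55 subunits of oxidative phosphorylation and -0.01 for 63 ribosomal proteins, with 3, 6 and 1 genes at an unadjusted p under 0.05.

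The series title names Xlr4, and the X-linked lymphocyte-regulated family was therefore read in every sample. Xlr4b was at 5.18, 6.33, 5.42 and 6.90 in RCF samples, against 7.30 and 7.50 in control samples, a difference of -1.45 ± 0.72 that did not pass (limma, adjusted p = 0.428). Xlr4a was at 6.19, 7.35, 6.67 and 7.67 in RCF samples, against 7.87 and 8.26 in control samples, a difference of -1.10 ± 0.78 (limma, adjusted p = 0.608). In both genes every RCF sample lay below both control samples, RCF 4 being the closest to them; such groups without overlap made up 18.8% of all features. Xlr3b differed by -0.68 ± 0.56 and its groups overlapped, with RCF 4 at 9.81 and control 1 and 3 at 9.80. Without RCF 1 and control 1 and 3 the Xlr4b and Xlr4a differences were -1.29 ± 0.97 and -1.03 ± 1.06. These 3 genes are near-identical copies of others in the family, so their probes may read more than 1 of them.

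The same contrast in the other strain and in the other region of C57 mice gave 0 calls in limma, with 433 features (1.7%) at an unadjusted p under 0.05 in the DBA NAc and 469 (1.84%) in the C57 mPFC. The features called lower in the C57 NAc had median differences of -0.22 in the DBA NAc and -0.27 in the C57 mPFC, against -1.34 in the C57 NAc. They were chosen by their fall in the C57 NAc, so the larger median there is no test. Over all features the medians were -0.03 in the DBA NAc and -0.04 in the C57 mPFC. Each response was taken within 1 slide, but responses of different strains or regions came from different slides and scan days. No feature passed for the difference between the C57 and DBA NAc responses, with 2061 (8.07%) at an unadjusted p under 0.05. Without RCF 1 and control 1 and 3 there were 4 calls and 278 at an unadjusted p under 0.05. That fit keeps only control 2 and 4 as a C57 NAc control sample, so its calls are not read as a response of the strain. With all samples, Acap1 came closest, at -1.81 ± 0.28 in the C57 NAc and 0.37 ± 0.23 in the DBA NAc, a difference of -2.18 ± 0.36 (limma, adjusted p = 0.0841). The Pip4p1 responses were 1.94 ± 0.38 in the C57 NAc and -0.40 ± 0.31 in the DBA NAc (difference 2.34 ± 0.49; limma, adjusted p = 0.271). For Xlr4b the responses were -1.45 ± 0.72 in the C57 NAc and 1.07 ± 0.59 in the DBA NAc, and their difference of -2.52 ± 0.93 did not pass (limma, adjusted p = 0.482).

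The difference between the NAc and mPFC responses of C57 mice likewise gave 0 calls in limma, with 1153 (4.52%) at an unadjusted p under 0.05. Without RCF 1 and control 1 and 3 there were 4 calls and 236 at an unadjusted p under 0.05. Nfia had the lowest p, at -1.46 ± 0.22 in the NAc and -0.12 ± 0.20 in the mPFC, a difference of -1.33 ± 0.30 (limma, adjusted p = 0.944). In these comparisons too some samples went against their labels. DBA NAc control 4 had a signal of 4.81 for Gpnmb, a gene broken in DBA mice, against 0.71 to 1.43 in the other 7 DBA NAc samples and 4.36 to 7.03 in the C57 NAc samples. Striatal minus cortical markers were 3.74 in C57 mPFC RCF 1 and 3.41 in C57 mPFC control 3, close to the NAc. Without DBA NAc control 4 the strain difference, and without C57 mPFC RCF 1 and control 3 the region difference, again gave 0 calls in limma, with 1913 and 720 features at an unadjusted p under 0.05.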

How the data were processed

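RNA of 31 samples was measured on one-colour Agilent arrays from 200 ng RNA labelled with Cy3, and samples with an integrity number under 8.0 were discarded, per the labels' protocols. The deposited matrix holds log2 values of 30067 probes, made by the authors, whose columns share a 75th percentile of 11.4303. The deposited scanner intensity files come from Agilent Feature Extraction 10.7.3.1, per the file headers, as a background-subtracted signal with no scaling between arrays. For each spot they also hold a median spot and background intensity and marks that score it as well above background, saturated or an outlier. The submitters' processing notes also name limma, with no step given.

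Each matrix column equals the log2 signal of 1 scanner file plus a constant, but for 29 of 31 samples that file is listed with another sample, in 27 cases of another group. Groups were taken from the matrix titles, and scanner files were matched to them by correlation.

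Near-identical arrays were averaged (27 samples). Probes were named through RefSeq accessions, and a gene took its brightest probe (25536 features, 14434 with a symbol). Differences were tested with limma 3.58.1 in R 4.3.3 (8 group means, intensity trend, Benjamini-Hochberg adjustment, threshold 0.05), a fit checked on simulated data. The simulated noise was independent between features and samples, so this check does not cover the shared profile or the samples in doubt. Array depth is signal over background, and the number of samples limits precision. Normexp used the median spot signal with an offset of 50, as the files used here hold no mean spot signal. Genes were named by p rank in either direction, by list membership and by rank in the fit without RCF 1 and control 1 and 3 and in the interactions. The members and lists were chosen with earlier results of these data known. Alternatives changed the samples, normalization, probe choice, array assignment, model and replicate block. Same-numbered RCF and control arrays correlated in their deviations at 0.78, 0.43, -0.34 and 0.51. RCF 1 and controls 1 and 3 stand apart on region markers, which enters these values, so they cannot decide whether arrays were paired. The numbers were not taken to pair the arrays.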

Additional observations from a re-analysis of the deposited data

Results flagged for a closer look

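Within the 4 RCF samples of the C57 NAc, 73 values (the named genes, the list means and the tissue score) were tested for 1 sample standing apart by Dixon's gap test, and 7 stood apart. Chance alone gives about 1 such value in 20 tests, and the lists share genes and move together, so the 7 are not separate pieces of evidence. In 6 of the 7 the sample was RCF 1, which was already set apart by its cortical markers. Its mean was 11.05 for striatal projection neuron markers, 10.69 for cortical excitatory neuron markers, 12.23 for interneuron markers, 9.59 for dopamine genes and 11.10 for opioid genes, and its striatal minus cortical score was 0.36. The seventh was RCF 3, with a mean of 15.02 for oxidative phosphorylation subunits, against 14.75 to 14.76 in the other RCF samples and 14.85 and 14.93 in the control samples.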

How the results depend on the processing

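The 211 calls depended on the samples and the model. Their number was 0 with the C57 NAc groups fitted alone, 6 without RCF 1 and control 1 and 3, 1374 with each array as its own sample, 333 with quantile normalization, 360 with normexp on the scanner files and 9227 with the scanner files as listed. It was between 7 (without control 1 and 3) and 1533 (without control 2 and 4) when 1 sample was left out, with 15 without RCF 4 and 23 without RCF 1. With the replicate block over unaveraged arrays it was 1315, with 34 kept of the 35 called genes that the naming rule selects from the 129, Pip4p1 (limma, adjusted p = 0.0847) being lost. This setting and that of each array as its own sample count the near-identical control arrays as separate samples. Their larger numbers are thus no measure of how well the calls hold. Without the 109 shared-profile features, chosen after seeing the data, 44 of the other 111 calls remained. Leaving out features with low p makes the Benjamini-Hochberg adjustment stricter for the rest. Fat2, for example, kept its unadjusted p of 2.63e-05 (limma), while its adjusted p went from 0.0197 to 0.0257. The other 6 settings gave 141 to 231 calls. Of the same 35 genes, 2 remained without RCF 1 and control 1 and 3, namely Fat2 and Pip4p1, and 7 without RCF 4. The strain difference gave 5 calls with each array as its own sample, 4 without RCF 1 and control 1 and 3, 3 with quantile normalization, 1 with all scanner probes and 0 to 580 when 1 sample was left out. The region difference gave 4 without RCF 1 and control 1 and 3 and 0 to 74 when 1 sample was left out, the highest in both cases without control 2 and 4. By the matrix titles, the files listed with the C57 NAc RCF samples are DBA mPFC arrays. Those listed with the control samples are C57 mPFC arrays. Their striatal minus cortical markers were at -0.4 to -0.23 and at -0.08 to 3.41. The setting with files as listed therefore does not compare the groups that the matrix titles name. In it, 9 named genes turned: Acap1 (1.48), Fat2 (0.64), Snapc5 (-0.20), Dynlt3 (-0.19), Tacr2 (-0.46), Tmem126a (-0.16), Kcnj13 (-0.20), Oacyl (-0.57) and Pdzrn3 (-0.56). With 1 sample left out, Stk32a ranged from -4.39 to 0.78, Slc8a2 from -0.93 to 4.09 and Mbd6 from -2.20 to 0.47, the turned values being those without control 2 and 4.

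List medians moved by more than 1 SD as follows. The files as listed again set DBA mPFC against C57 mPFC arrays by the matrix titles. With files as listed they were -1.38 for striatal, -0.46 for oligodendrocyte and -0.28 for microglia markers, -0.33 for H3K9 enzymes, -0.10 for histone deacetylases, -0.29 for DNA methylation, -0.71 for dopamine, -0.01 for serotonin, 0.21 for GABA-A receptors, 0.37 for oxytocin and vasopressin, -0.26 for interferon and -0.14 for heat shock genes. Without RCF 1 and control 1 and 3 they were -0.02 for interneuron markers, -0.01 for histone deacetylases, 0.15 for serotonin and 0.02 for GABA-A receptors and 0.24 for neurotrophins. Quantile normalization gave -0.07 for DNA methylation and 0.01 for heat shock genes. With 1 sample left out they ranged from -0.10 to 0.73 for choroid plexus markers, -0.08 to 0.02 for H3K9 enzymes, -0.08 to 0.03 for DNA methylation, 0.19 to 0.58 for serotonin receptors, -0.12 to 0.03 for ionotropic glutamate receptors, 0.02 to 0.12 for GABA-A receptors, -0.43 to 0.00 for Arf regulators and -0.13 to 0.00 for heat shock genes. The cause was not tested.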
